A study of Mus musculus with 6 samples.

Results

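The genes described here build ribosomes. The group holds 44 genes that were chosen by symbol, for their known part in ribosome biogenesis, among the 22192 genes of the deposited count table, and all 44 had a row. This choice was made with earlier results of these data known. The libraries are from RAW 264.7, a cell line of macrophage type that the labels assign to BALB/c mice. In 3 libraries, labelled ASPS-A1, the cells had grown for 24 h in medium with 200 µg/mL ASPS-A1, which is an acidic polysaccharide fraction of leaves of Acanthopanax senticosus. The titles number these libraries ASPS-A1, ASPS-A2 and ASPS-A3, while the treatment label of each is ASPS-A1, and they were read as 3 replicates of that treatment. The other 3 libraries are labelled control, and what the control medium held is not given in the sources used here. Polyadenylated RNA was sequenced, so the measurements are of the messenger RNAs for the assembly factors and not of ribosomal RNA.

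Ribosome assembly starts in the nucleolus, where RNA polymerase I copies the repeated rRNA genes into one long precursor. Small nucleolar RNA particles guide its chemical marks, box C/D particles for methylation of the ribose and box H/ACA particles for conversion of uridine to pseudouridine. A large set of helicases, nucleases and scaffold proteins then cuts and folds the precursor into a small and a large subunit, which are exported and finished in the cytoplasm. Growing and activated cells are known to need this pathway, since ribosome production limits how much protein a cell can make.

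The messenger RNAs for these factors were mostly higher with ASPS-A1, by modest amounts. Of the 44 genes, all abundant enough to test, 35 were higher, 2 were lower and 7 did not pass an adjusted p of 0.05 (edgeR quasi-likelihood test). Of all 11686 genes tested, 32.4% were called higher and 33.0% lower. The median log2 fold change of the 44 genes was 0.40, against -0.021 for all genes, and 41 of the 44 lay above that overall median. With scaling by library totals alone, 25 were higher and 7 lower, where 21.6% of all genes were called higher and 46.7% lower, and the median of the 44 was 0.21, each log2 fold change being lower by 0.19 to 0.20. In either direction 37 of the 44 were called, against 65.3% of all genes. The changes were small: 11 genes were called and at least 1.5-fold higher (12.8% of all genes), none reached 2-fold (3.69% of all genes), and no fallen gene reached 1.5-fold.

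As a group the 44 genes took 0.871%, 0.867% and 0.885% of all counts in the ASPS-A1 libraries and 0.731%, 0.733% and 0.730% in the control libraries. The 6 values did not overlap between the groups. On the CPM scale, which sets each library to a common size with TMM factors, their summed level was 9359 ± 120 with ASPS-A1 and 6836 ± 88.8 in control (SD, n = 3), a ratio of 1.37. Both measures are shares of the RNA sequenced, and neither gives an amount per cell. In such bulk samples a rise in every cell and a rise in some of the cells cannot be told apart. For 37 of the 44 genes the 3 libraries of one group did not overlap those of the other, as for 68.5% of all genes tested.

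**Figure D1:**
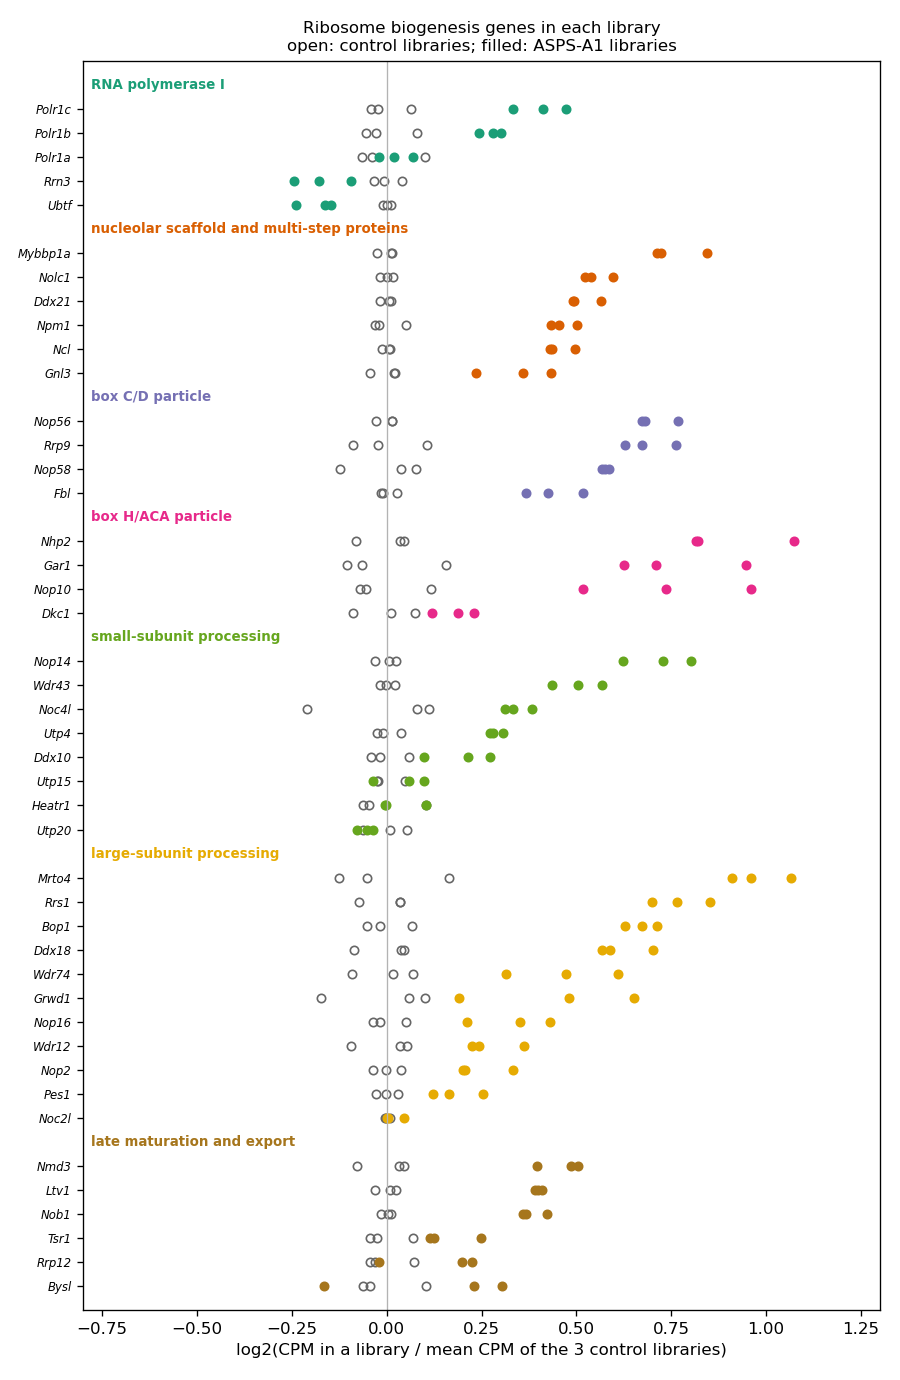
Level of each of the 44 genes in each library, as log2 of its CPM over the mean CPM of the control libraries (horizontal axis), with genes grouped by step (vertical axis). Open circles are the 3 control libraries and filled circles the 3 ASPS-A1 libraries. Most filled circles lie to the right of the open ones, except in 7 genes whose groups overlap and in Rrn3 and Ubtf, which lie to the left (TMM scaling, while with library totals alone 7 genes were called lower).

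The libraries held 19989318 to 26137127 counts, and the 44 genes had from 1377 (Grwd1) to 357381 (Npm1) counts over the 6 libraries. Between libraries of one group the chi-square per degree of freedom was 4.35 to 7.11, above sampling noise, and each was counted as a sample. The labels do not say whether the 3 libraries of a group came from separate cultures, so p-values measure only the spread between these libraries. Of 9 macrophage markers checked 8 had enough counts to test, Mrc1 had 1 count in all, and the 9 summed to 2962 to 3120 CPM with ASPS-A1 and 2011 to 2039 CPM in control. Fibroblast, epithelial, T cell and B cell lists each summed to under 1 CPM in each library, and 2 of 4 epithelial, 1 of 4 T cell and 1 of 3 B cell markers had no count. The endothelial list summed to 12.5 to 13.9 CPM against 6.81 to 8.15 CPM, nearly all of it Pecam1, which myeloid cells also carry. The part that these marker differences play in the results was not tested.

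Upstream sequence was available in the RefSeq table (GRCm38.p6) for 39 of the 44 genes, and 4 stretches are shown, chosen after the values were seen, because their genes moved differently and each holds a short motif known from promoters of growth genes. Each is the 250 bases before the annotated start site, written 5′ to 3′ along the gene. Capitals mark the E-box CACGTG, the site bound by MYC, MAX and other factors of that class, or the core of an ETS-type site, CCGGAAGT, which reads ACTTCCGG on the other strand.
Nhp2: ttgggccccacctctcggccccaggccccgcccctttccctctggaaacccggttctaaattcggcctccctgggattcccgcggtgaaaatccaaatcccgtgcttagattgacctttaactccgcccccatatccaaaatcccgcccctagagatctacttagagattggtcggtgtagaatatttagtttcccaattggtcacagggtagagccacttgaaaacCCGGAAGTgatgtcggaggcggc
Gar1: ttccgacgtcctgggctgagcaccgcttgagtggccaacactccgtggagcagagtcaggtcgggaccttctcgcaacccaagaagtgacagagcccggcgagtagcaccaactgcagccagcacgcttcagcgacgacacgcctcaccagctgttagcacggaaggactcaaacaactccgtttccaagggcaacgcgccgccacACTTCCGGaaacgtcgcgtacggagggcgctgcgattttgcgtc
Nmd3: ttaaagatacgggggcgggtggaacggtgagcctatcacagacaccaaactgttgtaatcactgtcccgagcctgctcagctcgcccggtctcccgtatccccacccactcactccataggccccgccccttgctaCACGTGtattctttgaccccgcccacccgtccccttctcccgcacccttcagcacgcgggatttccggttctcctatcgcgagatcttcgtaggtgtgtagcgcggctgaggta
Rrn3: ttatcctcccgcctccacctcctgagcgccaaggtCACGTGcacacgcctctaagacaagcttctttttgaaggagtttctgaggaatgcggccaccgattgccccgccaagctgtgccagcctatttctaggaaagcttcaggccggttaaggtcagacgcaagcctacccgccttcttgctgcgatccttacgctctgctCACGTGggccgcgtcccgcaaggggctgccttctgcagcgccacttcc
These stretches lie at chr11:51619523-51619772, plus strand (Nhp2), chr3:129831397-129831646, minus strand (Gar1), chr3:69721805-69722054, plus strand (Nmd3) and chr16:13780449-13780698, plus strand (Rrn3). Nhp2 and Gar1, which rose, hold the ETS core 23 and 44 bases before the start. Nmd3, which also rose, holds an E-box 114 bases before the start, and Rrn3, which fell, holds 2, at 215 and 48 bases, besides an ETS core that begins 6 bases before the start and runs past it. A stretch of these letters is not evidence of binding.

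In windows from 250 bases before to 50 after a start site, read on both strands, the E-box occurred for 11 of the 39 genes (28.2%), against 11.8% of the 9277 tested genes in the table and 8.09% of all 27025 genes with such a window. Of its 12 sites in these windows, 8 lay within the 50 bases after the start, among them those of Mybbp1a, Wdr43, Pes1 and Utp20. The ETS core also occurred for 11 of the 39 genes, against 9.64% of tested genes and 4.31% of all genes, and each of its 13 sites began upstream of a start site. The 2 motifs do not overlap each other in sequence. By motif, the median log2 fold change was 0.29 with an E-box and 0.40 without, and 0.40 with an ETS core and 0.36 without. These are descriptions, and no test was made on them.

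RNA polymerase I itself did not move as one. Of its 5 genes in the group, Polr1b and Polr1c were higher, Rrn3 and Ubtf were lower and Polr1a did not pass the test. Their median log2 fold change was 0.024, and library totals put it at -0.17, with 1 higher and 3 lower. Calls in both directions were also common among all genes tested, with 32.4% higher and 33.0% lower, or 21.6% and 46.7% with library totals.

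Polr1c, a subunit shared by RNA polymerases I and III, had 87.4, 91.2 and 82.8 CPM with ASPS-A1 and 63.9, 68.7 and 64.7 CPM in control. All ASPS-A1 libraries lay above all control libraries, and the gene was 1.33-fold higher (log2 fold change 0.41 ± 0.06 SE, edgeR adjusted p = 5.25e-08). When the model carried offsets for the length and GC content of each transcript, the difference was 0.088 and did not pass (adjusted p = 0.142). Polr1b, the second largest subunit and part of the catalytic core, had 21.5, 20.7 and 21.2 CPM with ASPS-A1 and 18.4, 16.8 and 17.1 CPM in control. These groups did not overlap either (log2 fold change 0.28 ± 0.09 SE, edgeR adjusted p = 0.00879), but with scaling by library totals the difference was 0.081 (adjusted p = 0.452).

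Polr1a, the largest catalytic subunit, had 68.1, 66.2 and 70.5 CPM with ASPS-A1 and 72.0, 64.2 and 65.4 CPM in control. The groups overlapped (log2 fold change 0.024 ± 0.06 SE, edgeR adjusted p = 0.751). Its call depended on the scaling: -0.17 (adjusted p = 0.0158) with library totals and 0.31 (adjusted p = 3.85e-06) with the length and GC offsets.

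Rrn3 and Ubtf, which act in initiation, were the 2 genes called lower, and neither was called lower with the length and GC offsets. Rrn3, which encodes TIF-IA and ties RNA polymerase I to growth signals, had 68.3, 64.4 and 61.4 CPM with ASPS-A1 and 71.2, 74.9 and 72.5 CPM in control. Each ASPS-A1 library was below each control library, and the difference was small (log2 fold change -0.17 ± 0.06 SE, edgeR adjusted p = 0.0121). It did not pass without ASPS-A1 replicate 3 (-0.13, adjusted p = 0.0720), without control replicate 2 (-0.15, adjusted p = 0.0571) or with the offsets (-0.088, adjusted p = 0.166). Ubtf, the architectural factor that keeps rRNA genes open, had 68.8, 68.0 and 64.6 CPM with ASPS-A1 and 76.2, 75.7 and 76.8 CPM in control. It was lower in all 3 ASPS-A1 libraries (log2 fold change -0.18 ± 0.06 SE, edgeR adjusted p = 0.00555) and turned to 0.066 (adjusted p = 0.286) with the offsets.

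Other genes of the polymerase, outside the 44, also moved in both directions. Of 15 such genes 9 rose, 3 fell and 3 did not pass, or 8 and 4 with library totals. With the length and GC offsets 8 rose and 3 fell, and the list median went from 0.52 to 0.19. All-gene shares were 32.4% higher and 33.0% lower, 21.6% and 46.7% with library totals, and 32.3% and 30.0% with the offsets. Of the 15, Polr2e, Polr2f, Polr2h, Polr2k and Polr2l also serve RNA polymerases II and III. On the log2 scale Polr2k (1.02), Polr2f (0.99), Polr2l (0.70) and Polr2h (0.52) rose, and Polr2e, at 0.11, did not pass. The subunits Polr1d (0.54, shared with RNA polymerase III), Polr1e (0.28) and Polr1h (0.70) rose, Polr1f fell (-0.29) and Polr1g, at -0.15, did not pass. Of the promoter selectivity factor, which brings the polymerase to rRNA genes, Taf1b (0.62) and Taf1d (0.83) rose, Taf1c fell (-0.55) and Taf1a, with overlapping groups, had 0.17 (edgeR adjusted p = 0.265). Ttf1, the termination factor, fell (-0.53).

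The messenger RNAs for the abundant nucleolar proteins rose together, 6 of 6, under TMM scaling, library totals and the length and GC offsets. Npm1, nucleophosmin, a chaperone of the outer nucleolus, had 3032, 3080 and 3184 CPM with ASPS-A1 and 2215, 2329 and 2198 CPM in control. The groups lay well apart (log2 fold change 0.46 ± 0.05 SE, edgeR adjusted p = 4.87e-12). With the length and GC offsets the difference was 0.16 (adjusted p = 0.000160). Npm1 has processed pseudogene copies, and how reads shared with them were counted is not given in the sources used here. Mybbp1a, a nucleolar protein that acts in rRNA transcription and processing, had 391, 425 and 388 CPM with ASPS-A1 and 239, 239 and 233 CPM in control. That 1.69-fold rise was the largest of the 6 (log2 fold change 0.76 ± 0.05 SE, edgeR adjusted p = 9.07e-19). Nolc1, a chaperone of small nucleolar particles, had 225, 235 and 223 CPM with ASPS-A1 and 157, 153 and 155 CPM in control, and its groups did not overlap (log2 fold change 0.55 ± 0.05 SE, edgeR adjusted p = 3.12e-14).

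Ncl, nucleolin, an RNA-binding protein of early precursor processing, had a log2 fold change of 0.45. The helicase Ddx21, which acts in both transcription and processing of rRNA, had 0.52, and the nucleolar GTPase Gnl3, nucleostemin, had 0.35, or 0.13 with the offsets. The sum of the 6 genes was 5847 ± 113 CPM with ASPS-A1 and 4190 ± 68.6 CPM in control (SD, n = 3), most of the sum over the 44 genes.

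All 4 genes counted here for the box C/D particle rose, and this held under all 3 scalings. They are not its full protein set. Snu13, also a protein of this particle, was listed with the further small-subunit genes. It rose by 0.61 on the log2 scale with TMM scaling. Nop56, a core scaffold protein, had 281, 301 and 283 CPM with ASPS-A1 and 173, 178 and 178 CPM in control. The lowest ASPS-A1 library stood far above the highest control library, a 1.63-fold rise (log2 fold change 0.71 ± 0.05 SE, edgeR adjusted p = 7.49e-18), although 8.12% of its exon length is shared with Idh3b, Snord57 and other gene models. Rrp9, the protein that marks the U3 particle, had 50.7, 55.7 and 52.3 CPM with ASPS-A1 and 32.3, 35.3 and 30.9 CPM in control. Its groups did not overlap (log2 fold change 0.69 ± 0.07 SE, edgeR adjusted p = 1.29e-11). Nop58, the partner of Nop56, rose by 0.58 and Fbl, fibrillarin, the methyltransferase itself, by 0.44 on the log2 scale. With the length and GC offsets Fbl kept a smaller difference of 0.11.

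The messenger RNAs for all 4 proteins of the box H/ACA particle also rose. Of the 4, 3 kept the call with library totals or with the offsets. Nhp2, which binds the guide RNA, had 191, 229 and 192 CPM with ASPS-A1 and 111, 112 and 103 CPM in control. All ASPS-A1 libraries were above control, with ASPS-A1 replicate 2 the highest, and the rise was 1.88-fold (log2 fold change 0.91 ± 0.06 SE, edgeR adjusted p = 5.07e-15). Gar1, which helps release the modified RNA, had 51.9, 61.2 and 49.0 CPM with ASPS-A1 and 30.4, 35.3 and 29.5 CPM in control. Again no library overlapped and replicate 2 was the highest of its group (log2 fold change 0.77 ± 0.08 SE, edgeR adjusted p = 6.39e-11). Nop10, the small core protein, rose by 0.75 on the log2 scale. With the length and GC offsets the rises were smaller, at 0.51 for Nhp2, 0.46 for Gar1 and 0.32 for Nop10.

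Dkc1, dyskerin, the pseudouridine synthase of the particle, rose least. Its libraries had 49.8, 52.2 and 53.7 CPM with ASPS-A1 and 48.3, 43.1 and 46.2 CPM in control. The groups did not overlap but lay close (log2 fold change 0.18 ± 0.07 SE, edgeR adjusted p = 0.0182). The call was lost without ASPS-A1 replicate 3 (0.15, adjusted p = 0.0709), without control replicate 2 (0.14, adjusted p = 0.119), with the offsets (0.12, adjusted p = 0.103) and with library totals (-0.017, adjusted p = 0.845). Whether Dkc1 changed less than its 3 partners was not tested.

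Processing of the small subunit was split. Of 8 genes 5 rose and 3 did not pass, while with library totals 2 rose and 3 fell and with the offsets all 8 rose. Nop14, a scaffold of the early small-subunit precursor, had 118, 127 and 133 CPM with ASPS-A1 and 76.8, 77.8 and 74.9 CPM in control. The groups were far apart (log2 fold change 0.72 ± 0.06 SE, edgeR adjusted p = 9.87e-16), and 5.27% of its exon length is shared with an overlapping gene model. Wdr43, a subunit of the UTPA complex, had 224, 214 and 234 CPM with ASPS-A1 and 158, 160 and 156 CPM in control. It too rose without overlap (log2 fold change 0.50 ± 0.05 SE, edgeR adjusted p = 9.70e-13).

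The other UTPA genes of the group had smaller values, a difference that was not tested. Utp4 rose by 0.29 on the log2 scale, while Utp15 had 0.041 (edgeR adjusted p = 0.592) and Heatr1 had 0.032 (edgeR adjusted p = 0.657), both with overlapping groups. Utp20, a very large protein of the small-subunit processome, had -0.056 (edgeR adjusted p = 0.466), with 49.9 to 51.4 CPM against 50.4 to 54.6 CPM. Library totals put Utp15 at -0.15, Heatr1 at -0.16 and Utp20 at -0.25, all called lower, and the offsets put them at 0.17, 0.29 and 0.20, all called higher. Noc4l, which pairs with Nop14, rose by 0.34 and the helicase Ddx10 by 0.20. With library totals Utp4 (0.090), Noc4l (0.15) and Ddx10 (0.0038) were not called. The Ddx10 call was also lost without ASPS-A1 replicate 1 (0.16, adjusted p = 0.0711) and without control replicate 3 (0.17, adjusted p = 0.0514).

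The large-subunit factors rose in 10 of 11 genes, or in 6 of 11 with 1 lower under scaling by library totals. Mrto4, a nuclear factor that resembles the stalk protein P0 and holds its place on the precursor, had 89.5, 99.6 and 92.5 CPM with ASPS-A1 and 53.3, 45.9 and 43.6 CPM in control. Mrto4 had the highest fold change of the 44 genes with TMM scaling, 1.97-fold (log2 fold change 0.98 ± 0.07 SE, edgeR adjusted p = 2.97e-17), and 96.0% of all tested genes were at or below it. With the length and GC offsets it was at 0.65, and 9 of the 44 genes were higher, with Mybbp1a (0.98) first. The annotation lists 2 pseudogenes of Mrto4, so its counts are less certain. Rrs1, which brings the 5S particle into the precursor, had 87.7, 82.5 and 78.8 CPM with ASPS-A1 and 49.8, 49.8 and 46.2 CPM in control. The groups did not overlap (log2 fold change 0.77 ± 0.06 SE, edgeR adjusted p = 4.33e-15).

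The messenger RNAs for Pes1, Bop1 and Wdr12, which form the PeBoW complex needed for a late cut in the precursor, each rose. Bop1 rose by 0.67, Wdr12 by 0.28 and Pes1 by 0.18 on the log2 scale. With library totals Bop1 was still higher (0.47), while Wdr12 (0.083) and Pes1 (-0.014) were not called. The helicase Ddx18 (0.62), the chaperone of the ribosomal protein L3 Grwd1 (0.45), Nop16 (0.33), Wdr74 (0.47) and the rRNA methyltransferase Nop2 (0.25) also rose. Of these, Nop2 (0.052) and Grwd1 (0.26) were not called with library totals. Noc2l, which has the most counts of this step, had 195, 201 and 195 CPM with ASPS-A1 and 194, 194 and 196 CPM in control. Its groups overlapped (log2 fold change 0.017 ± 0.05 SE, edgeR adjusted p = 0.767), and with library totals it was lower (-0.18, adjusted p = 0.000709). Noc2l shares 20.9% of its exon length with Samd11, and reads of the 2 cannot be told apart without knowing whether counting used strand.

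Late maturation and export rose in 4 of 6 genes, or in 3 with library totals and 6 with the offsets. Nmd3, the adaptor that takes the large subunit to the export receptor, had 70.9, 65.8 and 70.0 CPM with ASPS-A1 and 47.3, 51.1 and 51.5 CPM in control. Each ASPS-A1 library was higher than each control library (log2 fold change 0.46 ± 0.06 SE, edgeR adjusted p = 1.38e-08). Ltv1, an assembly factor of the small subunit that travels with it to the cytoplasm, had 45.8, 45.4 and 45.2 CPM with ASPS-A1 and 35.1, 34.7 and 33.7 CPM in control. The spread within each group was narrow (log2 fold change 0.40 ± 0.07 SE, edgeR adjusted p = 2.75e-06). Nob1, the nuclease of the last cut of the small-subunit rRNA, rose by 0.38.

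Tsr1, which holds the immature small subunit back from translation, had 89.8, 90.4 and 98.5 CPM with ASPS-A1 and 81.5, 87.0 and 80.4 CPM in control. The groups were separate but near each other (log2 fold change 0.16 ± 0.06 SE, edgeR adjusted p = 0.0107), and 32.3% of the exon length of Tsr1 is shared with Srr. The Tsr1 call was lost without ASPS-A1 replicate 3 (0.12, adjusted p = 0.0846), without control replicate 1 (0.15, adjusted p = 0.0556), without control replicate 3 (0.14, adjusted p = 0.0636) and with library totals (-0.031). Bysl, bystin, had 0.14 (edgeR adjusted p = 0.232) and shares 9.37% of its exon length with Ccnd3. The export factor Rrp12 had 0.14 (edgeR adjusted p = 0.148). Both had overlapping groups, and Bysl passed without ASPS-A1 replicate 3 (0.27, adjusted p = 0.0212), Rrp12 without ASPS-A1 replicate 2 (0.20, adjusted p = 0.0393).

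**Figure D2:**
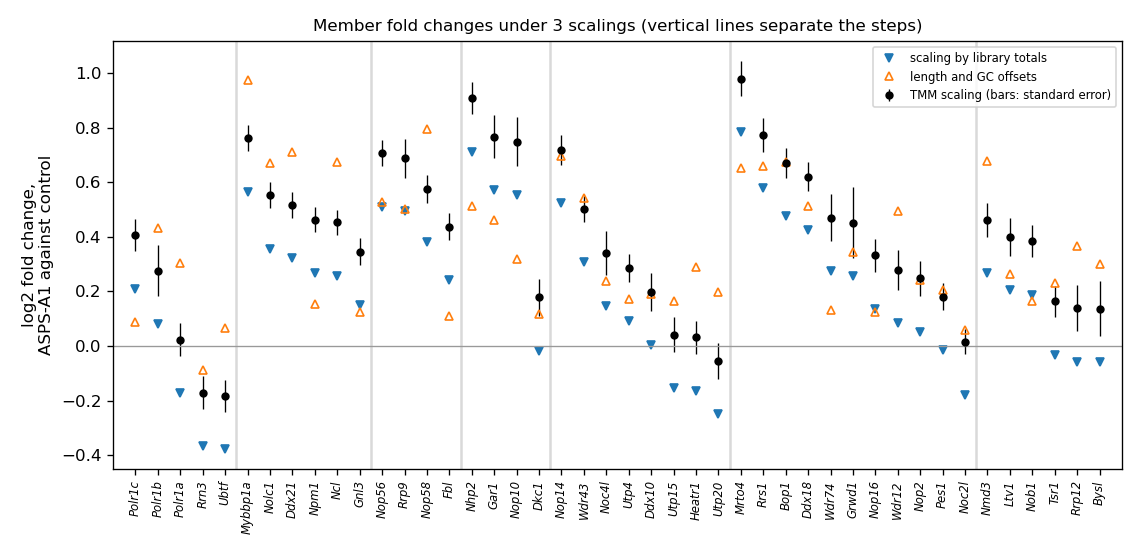
Log2 fold change of each of the 44 genes (vertical axis), by step along the horizontal axis, with TMM scaling (black, bars are standard errors), with library totals (blue) and with the length and GC offsets (orange). The blue points lie below the black ones in every step, by nearly the same distance. The orange points lie above the black ones for genes with long transcripts such as Ncl, Nop58, Nmd3 and Polr1a, and below for genes with short ones such as Nhp2, Nop10 and Mrto4.

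Fold change ran with transcript length in these libraries, and the 44 genes lay along that trend at a higher level. Over 10 length bins the median log2 fold change of all genes went from 0.48 in the shortest to -0.27 in the longest. Of the 44 genes, 41 lay above the median of their own length bin, the exceptions being Fbl, Rrn3 and Wdr74. The Spearman correlation of fold change with length was -0.492 over the 44 genes and -0.387 over the 11201 tested genes with a known length, as a description across genes that share libraries. Of the 7 genes with transcripts of 6000 nt or more, Polr1a, Utp20 and Heatr1 were not called, and Ncl, Nop58, Nmd3 and Wdr12 rose. Offsets that remove the trend left 38 of 44 higher and 0 lower (32.3% and 30.0% of all genes), with a median of 0.30. With them Polr1c, Dkc1 and Wdr74 were no longer called higher, Rrn3 and Ubtf were no longer called lower, and Polr1a, Utp15, Utp20, Heatr1, Bysl and Rrp12 were called higher. Of the 35 genes that rose, 14 had a log2 fold change over 1.5 times smaller with the offsets and 2, Polr1b (0.43) and Wdr12 (0.49), one over 1.5 times larger. Of the 14, those not given above were Utp4 (0.17), Nop16 (0.12), Ltv1 (0.27), Nob1 (0.16) and Wdr74 (0.13, adjusted p = 0.147). The lengths are of the longest annotated coding transcript, which may not be the one these cells make.

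**Figure D3:**
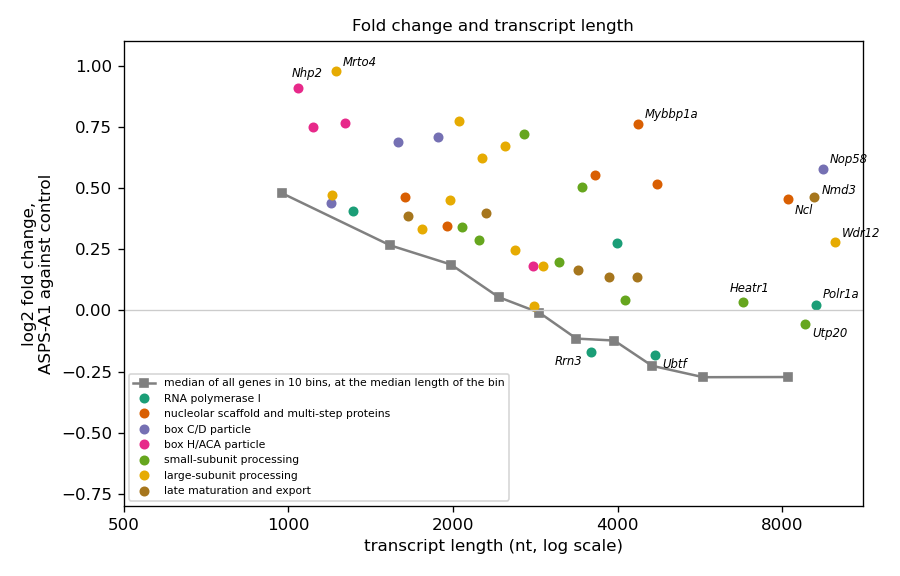
Log2 fold change (vertical axis, TMM scaling) against transcript length (horizontal axis, log scale) for the 44 genes, coloured by step, with the median of all genes in 10 length bins as grey squares. The grey line falls from 0.48 to -0.27, and 41 of the 44 coloured points lie above the median of their bin.

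Among other genes of the pathway, a list of 124 with no gene of the 44, more rose than fell. The difference between this list and the 44 was not tested. Of the 124, 81 rose, 11 fell and 32 did not pass, with a median log2 fold change of 0.33. With library totals 61 rose and 29 fell, and the median was 0.13. Among all genes tested, 32.4% were called higher and 33.0% lower, or 21.6% and 46.7% with library totals. The 3 largest rises were in Pno1, a partner of Nob1 on the small subunit, at 1.18, in Lyar, a nucleolar zinc-finger protein, at 1.15, and in Tma16, a large-subunit factor, at 1.14. Pno1 had 99.8, 105 and 105 CPM with ASPS-A1 and 48.1, 47.4 and 41.5 CPM in control, and its groups did not overlap. The 3 largest falls were in Taf1c (-0.55), Ttf1 (-0.53) and Urb2 (-0.46), a large-subunit factor.

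By step, 24 of 39 further small-subunit genes rose and 5 fell, 26 of 42 large-subunit genes rose and 3 fell, and 12 of 16 late maturation and export genes rose with 0 fallen. With library totals these became 16 and 10, 19 and 12, and 11 and 2. The length and GC offsets gave 23 and 1, 24 and 2, and 13 and 1. All-gene shares were 32.4% higher and 33.0% lower, 21.6% and 46.7% with library totals, and 32.3% and 30.0% with the offsets. Among the export genes, Ran, the GTPase that powers nuclear transport, rose by 0.74, Eif6, which keeps the subunits apart, by 0.49, and Sbds, which helps remove Eif6, by 0.56, while the export receptor Xpo1 had 0.070 (edgeR adjusted p = 0.190). These genes were picked from the list after their values were seen.

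The machinery of RNA polymerase III makes 5S rRNA and transfer RNAs. Counted without the subunits it shares with RNA polymerase I, which were listed there, it had a different make-up of calls. Of 21 subunits and factors 4 rose, 10 fell and 7 did not pass, with a median log2 fold change of -0.19. With library totals 4 rose and 17 fell. Of all genes tested, 32.4% were called higher and 33.0% lower, or 21.6% and 46.7% with library totals. Polr3c (0.49), Polr3d (0.59), Gtf3a (0.77), the 5S-specific factor, and Gtf3c6 (0.67) rose, and Polr3e (-0.84), Gtf3c1 (-0.79) and Brf1 (-0.76) fell. With the offsets 6 rose and 10 fell, where 32.3% of all genes were called higher and 30.0% lower. Of the shared subunits left out, Polr1c (0.41), Polr1d (0.54), Polr2f (0.99), Polr2h (0.52), Polr2k (1.02) and Polr2l (0.70) rose. Polr2e, at 0.11, did not pass. The difference between these lists was not tested.

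**Figure D4:**
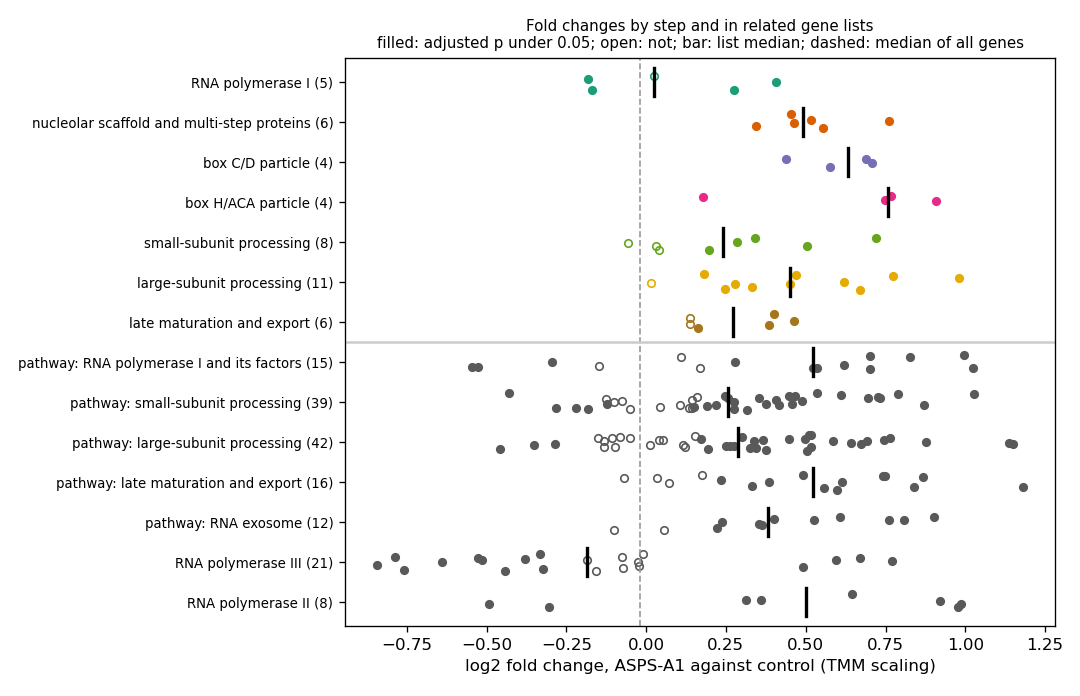
Log2 fold change (horizontal axis, TMM scaling) of the 44 genes by step, above the grey line, and of related gene lists below it, with the number of genes in brackets. Filled points passed an adjusted p of 0.05, black bars are list medians and the dashed line is the median of all genes at -0.021. The medians of the steps run from 0.024 for RNA polymerase I, or -0.17 with library totals, to 0.76 for box H/ACA, which with the length and GC offsets is at 0.39, below the nucleolar scaffold (0.67) and box C/D (0.52). RNA polymerase III, without the subunits it shares with RNA polymerase I, is at -0.19.

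Against a threshold of 1.5-fold rather than no change (glmTreat of edgeR), 7 of the 44 genes passed, all higher: Mybbp1a, Nop56, Nhp2, Gar1, Nop14, Rrs1 and Mrto4. Of all genes, 6.95% were higher and 7.53% lower by that test. Apart from that stricter test, 23 of the 44 genes, all higher, kept their direction and call in every alternative run.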

How the data were processed

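RNA was measured in 6 libraries, 3 per group, grouped by the treatment label. Per the labels, poly(A) RNA was selected with oligo(dT) beads and reverse transcribed with random primers. The submitters' processing notes name DESeq 1.38.3, HTSeq 0.9.1, HISAT2 2.1.0 and fastp 0.22.0, with no role or order. The deposited table holds whole-number counts per gene symbol that differ in total between libraries, so they were taken as raw. The genome build, annotation, strand setting and treatment of multiply mapped reads behind it are each not given in the sources used here. No deposited column was left out.

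Genes were filtered with filterByExpr (minimum count 10, minimum total 15), scaled with TMM and tested with the robust quasi-likelihood model of edgeR 4.0.16 in R 4.3.3, with Benjamini-Hochberg adjustment over 11686 genes and a threshold of 0.05. Depth was 19989318 to 26137127 counts per library and the common biological coefficient of variation 5.66%. Standard errors are the absolute log2 fold change over the square root of F. The script was tested on simulated data. Alternatives were relative log expression factors, library totals, DESeq2 1.42.0, limma-voom (limma 3.58.1), 2 other filters, a replicate block, length and GC offsets (lowess span 0.3, GENCODE M21), glmTreat at 1.5-fold and leaving out each library.

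The 44 genes, their steps, the other lists and the motifs were chosen with earlier results of these data known. Every gene of the 44 is named. Values per library are given, in each step, for the 2 largest changes, the gene with the most counts and called genes against the majority, and for Polr1a, Dkc1 and, outside the 44, Pno1, which were added after their values were seen. Of the 124 other genes, the 3 largest rises and falls and the Polr1 subunits are named by rule. Others named there were picked after their values were seen. Exon overlap is the share of a gene's GENCODE exon length that other genes cover on either strand, and shares over 5% are given.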

Additional observations from a re-analysis of the deposited data

How the results depend on the processing

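With relative log expression factors, DESeq2, limma-voom, no filter, at least 1 CPM in 3 libraries or a replicate block, the 44 genes kept 35 higher and 2 lower, each with its direction and side of the threshold. Leaving out 1 library at a time gave 33 to 36 higher and 1 to 2 lower, with 1 lower without ASPS-A1 replicate 3 or control replicate 2, where Rrn3 lost its call. Scaling by library totals shifted the median of all genes to -0.22, the median of the 44 to 0.21 and the counts lower to 7 of the 44 and 29 of the 124. There Polr1a (-0.17), Dkc1 (-0.017), Utp15 (-0.15), Heatr1 (-0.16), Pes1 (-0.014), Noc2l (-0.18), Bysl (-0.059), Tsr1 (-0.031), Rrp12 (-0.057) and the RNA polymerase I median (-0.17) changed sign. The length and GC offsets gave 0 of the 44 and 7 of the 124 lower and a median of 0.30, with the sign changed for Ubtf (0.066) and Utp20 (0.20). Signs near 0 also changed for Polr1a without control replicate 2 (-0.0087, up to 0.072 over the libraries left out), Heatr1 without ASPS-A1 replicate 3 (-0.0035, up to 0.083) and Noc2l without ASPS-A1 replicate 2 (-0.0030, up to 0.026). The TMM factors, which scaling by library totals leaves out, were 0.921 to 0.945 in the ASPS-A1 libraries and 1.06 to 1.08 in the control libraries. The cause of these sign changes was not tested. glmTreat, which asks for more than 1.5-fold, left 7 and 0 of the 44 genes, 21 and 0 of the 124 and 812 and 880 of all genes higher and lower. Same-numbered libraries did not deviate together (correlations -0.0138, 0.00709 and 0.00398), so the numbers were not taken to pair samples, and in no case was the best-correlated library the one with its own number. All-gene counts with the replicate block were 3746 higher and 3807 lower.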

Other observations

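The RNA exosome, the 3′-to-5′ nuclease complex that trims rRNA precursors and many other nuclear RNAs, was among the other pathway lists. Of its 12 genes 10 rose, 0 fell and 2 did not pass (edgeR), with a median log2 fold change of 0.38, and with scaling by library totals 7 rose and 1 fell. With the length and GC offsets 6 rose, 0 fell and the median was 0.19. All-gene shares were 32.4% higher and 33.0% lower, 21.6% and 46.7% with library totals, and 32.3% and 30.0% with the offsets. The cap protein Exosc3 (0.90), Exosc2 (0.81) and the catalytic subunit Dis3 (0.76) had the largest rises, chosen after their values were seen. The helicase Mtrex, which feeds RNA to the complex, had -0.10 (edgeR adjusted p = 0.173).

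Genes of RNA polymerase II that the other polymerases do not share, Polr2m among them, moved in both directions. Of 8 genes 6 rose and 2 fell. Polr2c (0.99) and Polr2g (0.98) rose, while the 2 large catalytic subunits, Polr2a (-0.49) and Polr2b (-0.30), fell. With library totals 5 rose and 2 fell, and with the offsets 4 rose and 2 fell. All-gene shares were 32.4% higher and 33.0% lower, 21.6% and 46.7% with library totals, and 32.3% and 30.0% with the offsets.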
